A study of Mus musculus with 12 samples.

Results

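Unheated fibroblasts lacking CHIP were compared with unheated wild-type fibroblasts, gene by gene, in 3 RNA-seq libraries against 3. A gene entered the comparison when its FPKM, the number of fragments scaled to gene length and library depth, was at least 1 in at least 3 of these 6 libraries. This held for 11995 of the 54532 genes listed. Hist2h3c2 was just inside that limit, at 1.49, 1.00 and 1.62 FPKM in wild type and 0.902, 0.763 and 0.718 FPKM in CHIP-KO. Gm47260 was just outside, at 0.695, 0.839 and 0.849 FPKM in wild type and 1.78, 1.53 and 0.999 FPKM in CHIP-KO.

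The cells were mouse embryonic fibroblasts (MEFs), connective tissue cells grown from mouse embryos, of genotype WT or CHIP-KO, and poly(A) RNA was sequenced. The series holds 12 libraries, 3 for each genotype without treatment and 3 for each genotype after 1 hour at 43 °C. All 12 were fitted together, so the heated libraries enter the estimate of each gene's spread. Apart from that they are used below only for the same genes in separate libraries. For every group the labels give the cell line (MEF), the genotype and the treatment, and the sources used here give no strain, embryo age, sex, passage, immortalization or clone, and no statement that the 3 libraries of a group were separate cultures. The p-values therefore rest on the spread between libraries within the 4 groups, heated ones included, which may be technical. What separates the 2 cell stocks besides CHIP cannot be told apart from CHIP.

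CHIP, encoded by Stub1, is a co-chaperone that binds HSP70 and HSP90 and, as a ubiquitin ligase, marks their bound clients for the proteasome. It is also known for clearing damaged or misfolded proteins and for limiting the heat shock response. Embryonic fibroblasts keep transcription factor patterns of the body region they came from, above all of Hox genes, so that fibroblasts of different origin differ in these genes.

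Fragments recovered from the values numbered 15591924 to 20098901 per wild-type library and 22894580 to 26244726 per CHIP-KO library. The 3 CHIP-KO libraries were close to one another (chi-square per degree of freedom 3.72 to 4.76 for their pairs), as were wild-type replicates 2 and 3 (3.83). Wild-type replicate 1 stood apart (20.1 and 23.4) and had 0.537% of its fragments on mitochondrial genes, against 1.06% and 1.21% in the other wild-type libraries and 0.915% to 1.16% in CHIP-KO. Counts of each gene list were repeated without it and without the heated wild-type library numbered 1, and are given where they moved by over 1.5 times. Differences are CHIP-KO minus wild type in log2(FPKM + 1), a scale that shrinks changes of genes with low values. They come with the standard error (SE) and the adjusted p from limma with Benjamini-Hochberg adjustment over all 11995 genes; a gene is called at an adjusted p under 0.05.

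Stub1 (ENSMUSG00000039615, GRCm38 chr17:25830636-25833361, minus strand) checks the labels. It stood at 64.1, 63.4 and 57.5 FPKM in the wild-type libraries and 1.17, 1.02 and 0.722 FPKM in CHIP-KO, a difference of -5.0 ± 0.08 (SE; limma adjusted p = 3.4e-12). An exact two-sided permutation test gave p = 0.1, the smallest that 3 libraries against 3 can give.

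Of the 11995 genes, 6246 were called (52.1%), 3069 higher in CHIP-KO (25.6%) and 3177 lower (26.5%). Counts of list members below are to be set against these shares. The values of the 2 genotypes did not overlap for 7720 genes (64.4%). Most called differences were small, and 58.9% of them were under 0.5 in size. The large ones were mostly rises. Counted on the log2(FPKM + 1) scale, where a 2-fold difference is 1 and folds of low genes are understated, 610 genes were at least 2-fold higher (5.09%) and 199 at least 2-fold lower (1.66%), 154 and 15 genes differed at least 4-fold, and 49 and 3 at least 8-fold. The share of genes called went from 44.0% at a mean under 2 FPKM to 59.3% at 20 to 100 FPKM. Over all genes the median difference was -0.01. Around Stub1, 52 tested genes lie within 1 Mb, of which 14 were higher and 16 lower in CHIP-KO, with a median difference near 0 (-0.00087), where 25.6% and 26.5% of all genes were higher and lower.

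**Figure D1:**
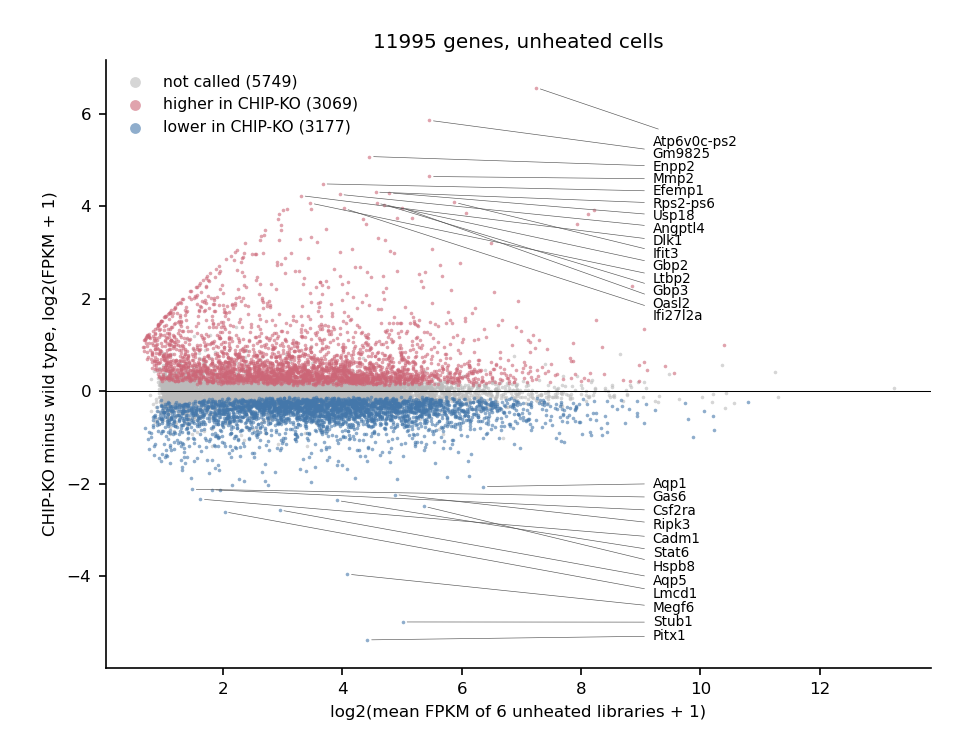
Each point is 1 of the 11995 genes: the x axis is the mean level over the 6 unheated libraries and the y axis the CHIP-KO minus wild-type difference, both in log2(FPKM + 1), with called genes in colour. Rises extend further from 0 than falls, with Enpp2 at 5.08 and the pseudogene Atp6v0c-ps2 at 6.57, while Pitx1, Stub1 and Megf6 stand below the other falls.

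The 12 largest rises among named protein-coding genes were Enpp2, Mmp2, Efemp1, Usp18, Angptl4, Dlk1, Ifit3, Gbp2, Ltbp2, Gbp3, Oasl2 and Ifi27l2a. These 12 rises and the 12 falls below were picked among called genes whose groups did not overlap. Their separation follows from that choice, and 64.4% of all genes had it. Enpp2, which encodes autotaxin, the secreted enzyme that makes lysophosphatidic acid (chr15:54838901-54952892, minus strand), stood at 0.351, 0.230 and 0.204 FPKM in wild type and 41.8, 40.4 and 42.4 FPKM in CHIP-KO (difference 5.08 ± 0.05, limma adjusted p = 2.0e-13). Angptl4, a secreted inhibitor of lipoprotein lipase, stood at 0.541, 0.544 and 0.545 FPKM in wild type and 27.9, 27.8 and 29.9 FPKM in CHIP-KO (4.26 ± 0.13, limma adjusted p = 3.1e-10). All CHIP-KO libraries of both genes lay above all wild-type ones, as the choice of genes required.

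Dlk1, an imprinted gene for a membrane protein that restrains adipocyte differentiation, was at 0 in all 3 wild-type libraries and at 18, 17.5 and 17.8 FPKM in CHIP-KO. Against a floor of 3 fragments per library this is at least 622-fold higher. Efemp1 and Ltbp2, both proteins of elastic matrix fibres, were nearly as low in wild type. Efemp1 stood at 0.0312, 0.151 and 0.0925 FPKM in wild type and 23.1, 22.3 and 24.9 FPKM in CHIP-KO, and Ltbp2 at 0.225, 0.200 and 0.288 FPKM against 19.8, 19.3 and 20.2 FPKM (limma adjusted p = 1.6e-12 and 1.4e-11). Neither gene's groups overlapped, which the choice of genes required.

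The 12 largest falls were Pitx1, Stub1, Megf6, Lmcd1, Aqp5, Hspb8, Stat6, Cadm1, Ripk3, Csf2ra, Gas6 and Aqp1. Megf6, a secreted protein with EGF-like repeats, stood at 32.4, 29.3 and 30.8 FPKM in wild type and 0.934, 1.10 and 1.11 FPKM in CHIP-KO (-3.96 ± 0.08, limma adjusted p = 2.0e-11). Ripk3, the kinase that triggers necroptosis, stood at 45.5, 49.9 and 47.3 FPKM against 8.97, 9.30 and 9.61 FPKM (-2.24 ± 0.08, limma adjusted p = 1.7e-09). Stat6, the transcription factor of interleukin-4 signalling, stood at 21.7, 25.1 and 25.9 FPKM against 4.04, 3.83 and 3.76 FPKM (-2.37 ± 0.07, limma adjusted p = 3.8e-10). In each case the highest CHIP-KO library was below the lowest wild-type one, which the choice of genes required.

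The water channel genes Aqp1 and Aqp5 also fell, Aqp1 from 129, 128 and 138 FPKM to 30.4, 29.2 and 32.5 FPKM and Aqp5 from 12.5, 12.2 and 12 FPKM to 1.29, 1.17 and 1.21 FPKM (limma adjusted p = 1.1e-09 and 1.2e-10). Cadm1, a cell adhesion molecule, was at 4.03, 4.35 and 4 FPKM in wild type and under 0.02 FPKM in every CHIP-KO library. Gas6, the ligand of the TAM receptor kinases, was at 3.09, 3.33 and 4.21 FPKM in wild type and 0, 0.0436 and 0.0677 FPKM in CHIP-KO (limma adjusted p = 6.2e-09). Both were thus near absent in CHIP-KO, where wild type had a low but steady level.

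**Figure D2:**
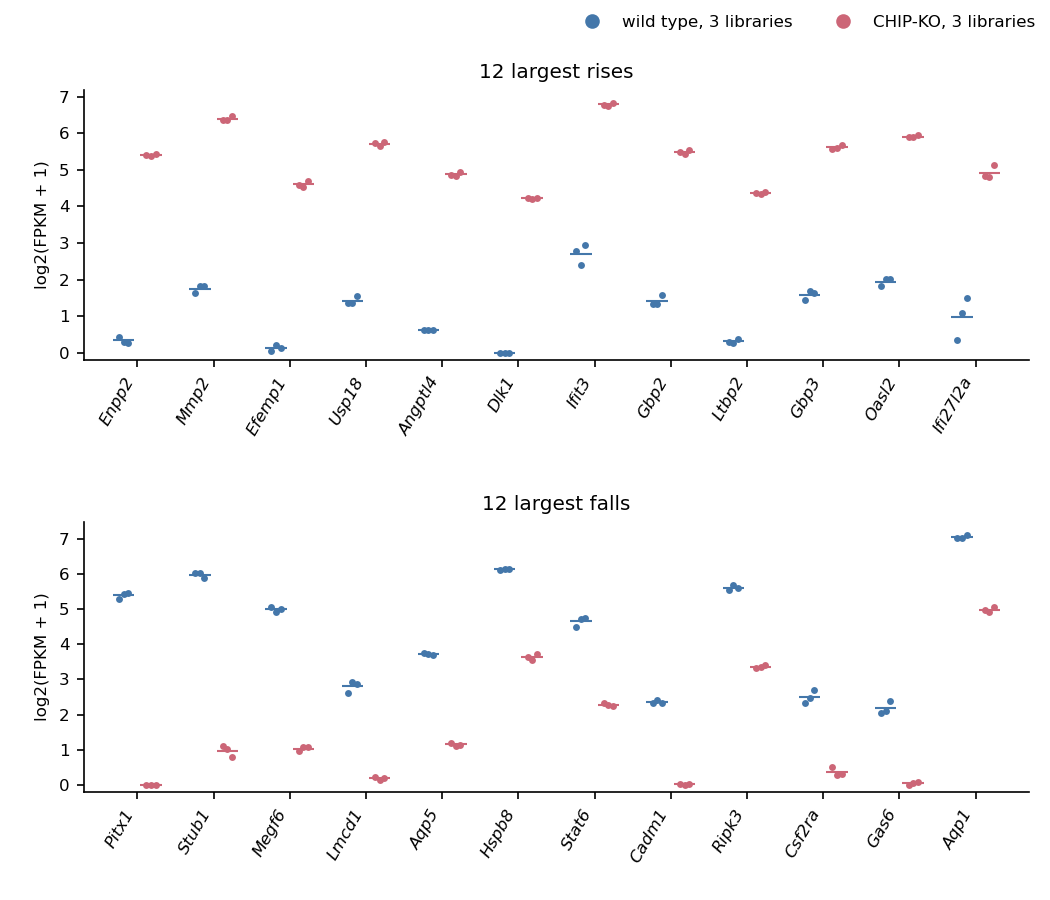
Each point is the level of 1 gene in 1 library, in log2(FPKM + 1), with wild type in blue, CHIP-KO in red and a line at the group mean; the upper plot holds the 12 largest rises and the lower the 12 largest falls. The groups of every gene are separate, as the choice of genes required. Of the rises Ifi27l2a has the widest spread in wild type (0.274, 1.10 and 1.83 FPKM).

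Genes that were nearly off in 1 genotype were counted apart. There were 50 genes with a mean under 0.1 FPKM in wild type and at least 2 FPKM in CHIP-KO, 47 of them protein-coding, and 4 the other way: Pitx1, Cadm1, Gas6 and Tmem171. Among the 50, Wnt10a, a secreted Wnt ligand, stood at 0.0514, 0.104 and 0.0382 FPKM in wild type and 12.8, 12 and 14.4 FPKM in CHIP-KO. All 54 were called. Such counts depend on membership, since a gene near 0 in 1 genotype entered only through the other.

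Among the 50, Ddx3y, Eif2s3y and Kdm5d, are genes of the Y chromosome. Each was at 0 in all 3 wild-type libraries. In CHIP-KO, Ddx3y, an RNA helicase, stood at 14.4, 14.7 and 13.2 FPKM, Eif2s3y, a translation initiation factor subunit, at 13.0, 13.3 and 13.6 FPKM, and the histone demethylase Kdm5d at 2.75, 2.75 and 2.67 FPKM. Against the floor of 3 fragments per library these levels are at least 454-fold, 342-fold and 255-fold higher. Uty, a further Y-linked gene, which has a close copy on the X chromosome, was not called, at 2.47, 2.51 and 2.58 FPKM in wild type and 2.72, 2.93 and 3.35 FPKM in CHIP-KO (limma adjusted p = 0.073). Xist, the RNA of the inactive X chromosome, was under 0.003 FPKM in all 6 libraries. The part of this difference between the cell stocks in the other results was not tested.

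Transcription factors that pattern the limbs and trunk differed widely. Of 64 limb and mesenchyme factors listed, 43 were members, and 32 were higher and 4 lower in CHIP-KO, with a median difference of 0.91 against -0.01 over all genes. Of these, 12 reached 1 FPKM in no wild-type library and 2 in no CHIP-KO library, so the filter fixed their direction, and of the other 29, 20 were higher and 2 lower (median 0.63). Pitx1, which specifies the hindlimb (chr13:55825051-55836192, minus strand), stood at 38.1, 41.8 and 42.6 FPKM in wild type and at 0 in all CHIP-KO libraries, at least 902-fold lower against the floor. Tbx4, which acts with it in the hindlimb, stood at 1.47, 1.91 and 1.92 FPKM in wild type and 0, 0.0218 and 0 FPKM in CHIP-KO (limma adjusted p = 4.7e-08). Its forelimb relative Tbx5 had the opposite pattern, at 0.0679, 0 and 0.0201 FPKM in wild type and 2.37, 2.64 and 2.68 FPKM in CHIP-KO (limma adjusted p = 2.4e-09).

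Other factors of this list were present in CHIP-KO and absent or low in wild type. Hand2, a limb bud and heart factor, was at 0 in wild type and 3.83, 4.11 and 4.33 FPKM in CHIP-KO, at least 59.5-fold higher. Zic1 and Alx1 were likewise at 0 in wild type, with 3.37 to 3.64 and 2.70 to 3.15 FPKM in CHIP-KO. Tbx15, a factor of mesenchyme and skeleton, stood at 80.5, 79.6 and 80.0 FPKM in CHIP-KO against 7.77, 9.23 and 9 FPKM in wild type (3.07 ± 0.09, limma adjusted p = 3.6e-10). Osr1, Irx1 and Lhx9 rose by 2.69, 2.91 and 2.57. The general mesenchymal factors Prrx1 and Twist1, well expressed in both genotypes, were higher by 1.12 and 1.18, and Foxd1 was lower by a difference of -1.05 (8.80, 6.74 and 6.45 FPKM against 2.94, 2.93 and 3.14 FPKM). Gata4 was not called, with a difference of 0.05 ± 0.09.

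All 5 HoxC members (Hoxc4, Hoxc5, Hoxc6, Hoxc8 and Hoxc9) and all 5 HoxB members were higher in CHIP-KO, with medians of 2.87 and 1.87. Hoxc6 stood at 0.0791, 0.0212 and 0.0978 FPKM in wild type and 11.1, 10.9 and 11 FPKM in CHIP-KO (3.49 ± 0.06, limma adjusted p = 7.5e-12). Hoxc8 was at 0 in wild type and 6.02, 6.24 and 6.65 FPKM in CHIP-KO, at least 110.4-fold higher. Hoxb6 stood at 0.808, 0.989 and 0.887 FPKM against 6.88, 6.74 and 6.65 FPKM (2.03 ± 0.06, limma adjusted p = 1.8e-10). No HoxC member exceeded 0.1 FPKM in any wild-type library. All 5 HoxC and 4 of the 5 HoxB members were under 1 FPKM in every wild-type library, so they entered the comparison through CHIP-KO alone and had to be higher there.

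The HoxA cluster was divided. Hoxa2, Hoxa3, Hoxa4 and Hoxa5 were higher (1.29, 0.99, 0.52 and 0.94), while Hoxa9 and Hoxa10 were lower (-0.58 and -0.44). Of its 12 members 5 were not called. The filter fixed the direction of 2 that reached 1 FPKM in no wild-type library and of 1 that did so in no CHIP-KO library. Of the other 9, 2 were higher and 2 lower. Hoxa5 stood at 6.12, 6.56 and 5.82 FPKM in wild type and 13.0, 12 and 13.1 FPKM in CHIP-KO, and Hoxa10 at 38.5, 38.5 and 40.4 FPKM against 29.3, 28.3 and 28.3 FPKM. Of 4 HoxD members, Hoxd8 and Hoxd11 were lower (-0.66 and -0.84), and Hoxd13, at 38.3, 37.1 and 34.8 FPKM against 33.5, 33.5 and 36.3 FPKM, was not called. Of these 4, 1 reached 1 FPKM in no CHIP-KO library and had to be lower. Of 13 imprinted members 8 were higher and none lower at the adjusted threshold, among them Mest (1.39), Peg10 (1.05) and Cdkn1c (1.03). Of these 13, 3 reached 1 FPKM in no wild-type library and had to be higher. Of the other 10, 5 were higher and none lower (median 0.25).

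**Figure D3:**
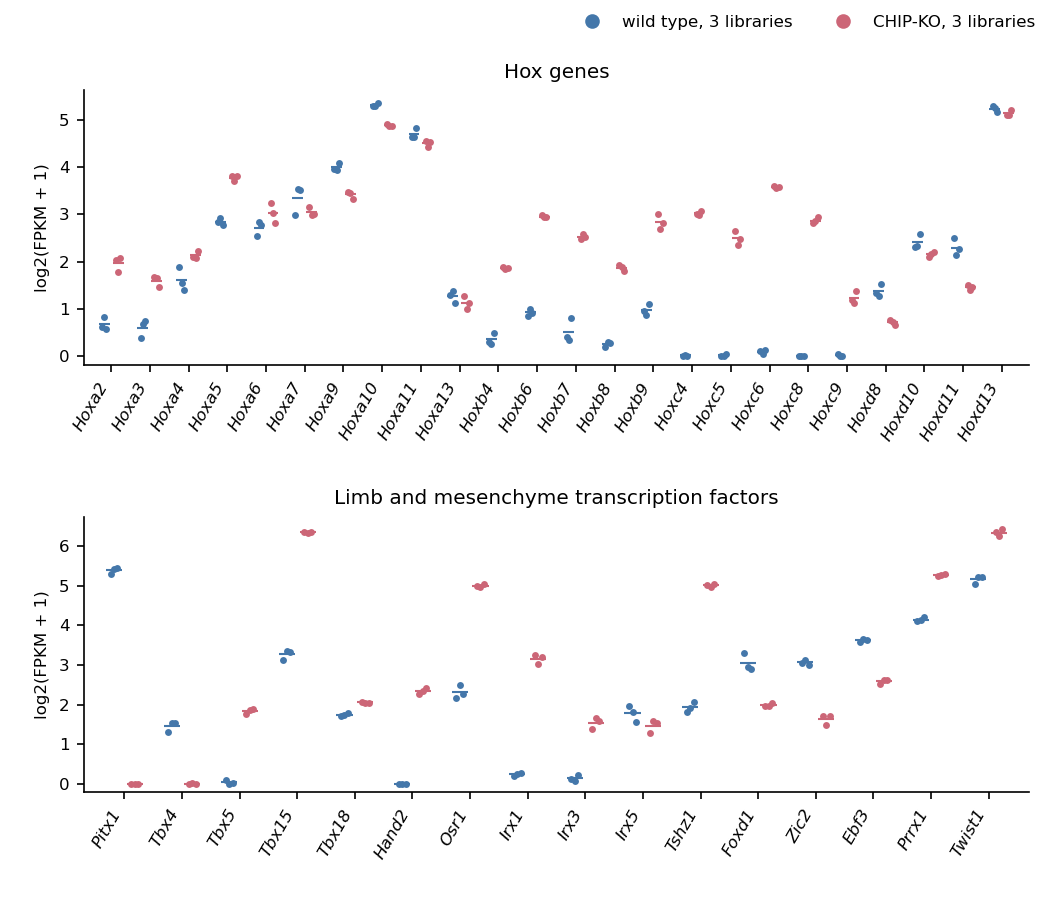
Each point is 1 library's level in log2(FPKM + 1), wild type in blue and CHIP-KO in red, with a line at the group mean; the upper plot gives Hox genes in cluster order and the lower 16 limb and mesenchyme factors. HoxC genes are at or near 0 in wild type and well above it in CHIP-KO, and Pitx1 and Tbx4 show the reverse.

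Differences were also unequal between chromosomes, a pattern noticed after the values were seen. Chromosomes 1, 4, 10, 13, 15 and 16 had median differences from -0.24 (chromosome 15) to -0.13 (chromosome 4), and chromosomes 6 and 17 both had 0.11. The other 12 chromosomes lay between -0.02 and 0.05. On the 6 low chromosomes 41.9% of 3338 genes were lower in CHIP-KO and 18.6% higher, on chromosomes 6 and 17 16% were lower and 35.5% higher, and elsewhere 21.4% and 27.2%. The low chromosomes held 27.8% of the genes and 44.0% of the falls. In windows of 20 Mb with at least 20 genes, the median was below 0 in 37 of 41 windows on the 6 low chromosomes and above 0 in 13 of 13 on chromosomes 6 and 17. The classes of chromosomes were set by these same medians, below -0.1 or above 0.1. The shares and window counts thus follow in part from that choice and are no separate support.

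Against the wild-type mean, each CHIP-KO library had medians of -0.23 to -0.11 on the low chromosomes. On chromosomes 6 and 17 they were 0.10 to 0.12. These come from the values that set the classes. Wild-type libraries against one another gave -0.04 to 0.06 on the low chromosomes and -0.03 to 0.05 on chromosomes 6 and 17. In the heated libraries, which are separate samples, the low chromosomes had medians of -0.17 to -0.07, chromosomes 6 and 17 0.15 and 0.08, and the others 0.03 to 0.10. Chromosome 17 thus lay within the range of the others in the heated libraries. Without the wild-type libraries numbered 1 the low chromosomes were at -0.22 to -0.12. Chromosomes 6 and 17 were then at 0.09 to 0.14 and the others at -0.02 to 0.07. Of the 4 windows above 0 on the low chromosomes, 3 were at 0.03 or less, and positions 80 to 100 Mb of chromosome 4, which hold Cdkn2a, had 49 genes and a median of 0.47. DNA copy number was not measured, and its part in this pattern was not tested.

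**Figure D4:**
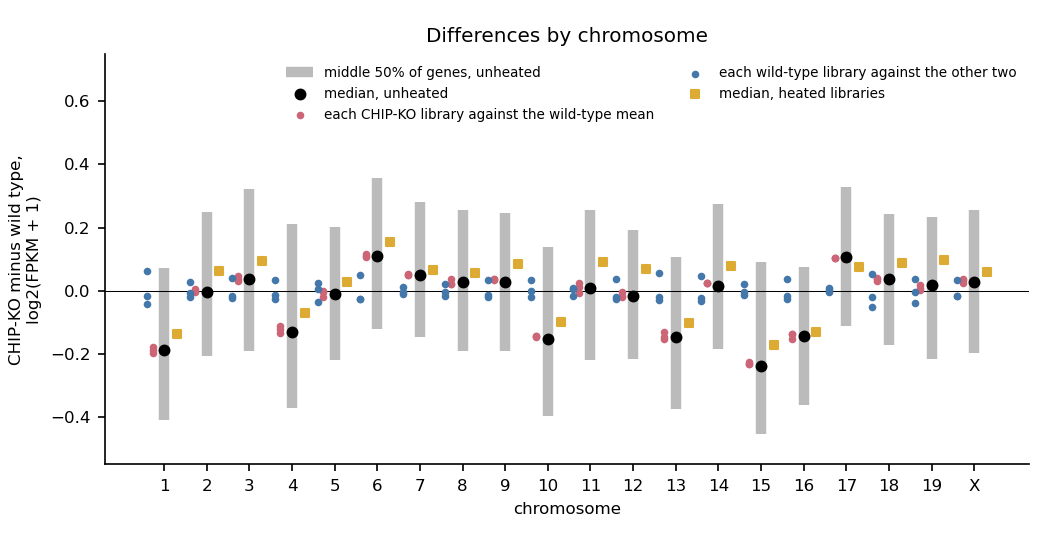
Median difference of each chromosome in log2(FPKM + 1) (black), with the middle 50% of its genes (grey bar), each CHIP-KO library against the wild-type mean (red), each wild-type library against the other two (blue) and the median in the heated libraries (yellow squares). Chromosomes 1, 4, 10, 13, 15 and 16 lie below 0 in both treatments and chromosome 15 is lowest, at -0.24.

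Genes induced by interferon, which block virus replication and present antigen, rose together in CHIP-KO. All 30 interferon effector members were higher in CHIP-KO and each by at least 2-fold, with a median difference of 2.74 (2.68 over the 25 that reached 1 FPKM in both genotypes), where 25.6% of all genes were higher and 5.09% at least 2-fold. All 9 members of the interferon-inducible GTPases were higher (median 2.97), as were all 20 of the MHC class I and immunoproteasome list (median 1.28). In each of these 2 lists, 3 members reached 1 FPKM in no wild-type library, so the filter fixed their direction. The other 6 GTPases and 17 MHC list members were all higher too (medians 3.52 and 1.31). Of 26 members among the IRF and STAT factors and nucleic acid sensors 21 were higher and 2 lower. Among the 25 of them that reached 1 FPKM in both genotypes, 20 were higher and 2 lower. The lists were chosen with earlier results of these data known.

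The promoters of these genes often hold the interferon-stimulated response element, here 2 copies of GAAA with any 2 bases between them on either strand, which IRF and STAT complexes are known to bind. It was searched in the 300 bases from 250 before to 50 after each start in the RefSeq promoter table (GRCm38.p6). It was found for 10 of the 21 interferon effectors with an entry, 7 of 8 GTPases and 5 of 17 genes of the MHC list, against 3.66% of all members with an entry and 3.99% of all genes in the table. Of members at least 2-fold higher in CHIP-KO 15.6% held it, of those at least 2-fold lower 3.70% and of those not called 2.89%. A match is a description of these letters only. Both stretches below are shown because the element lies just upstream of genes that rose strongly: Ifit3, an RNA-binding antiviral protein (chr19:34583362-34583461, plus strand), and Bst2, the virus tether tetherin (chr8:71537548-71537647, minus strand). Capitals mark every match, overlapping ones joined.
Ifit3: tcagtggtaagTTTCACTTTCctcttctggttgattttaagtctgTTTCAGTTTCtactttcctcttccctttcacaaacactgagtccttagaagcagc
Bst2: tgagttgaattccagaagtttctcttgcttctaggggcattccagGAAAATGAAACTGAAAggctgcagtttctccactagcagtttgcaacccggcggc
Each promoter holds 2 matches, on the minus strand of the gene in Ifit3 and on the plus strand in Bst2, where they overlap. The neighbouring copy Ifit3b has the same 100 bases at chr19:34607758-34607857.

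Ifit3 stood at 5.82, 4.28 and 6.75 FPKM in wild type and 109, 107 and 114 FPKM in CHIP-KO (4.09 ± 0.13, limma adjusted p = 5.1e-10). Its near-identical copy Ifit3b stood at 1.94, 1.84 and 1.81 FPKM against 38.6, 35.8 and 36.2 FPKM, and the split of reads between the copies is uncertain. Bst2 stood at 35.1, 34.8 and 36.5 FPKM in wild type and 546, 531 and 587 FPKM in CHIP-KO (3.93 ± 0.08, limma adjusted p = 1.5e-11). Bst2 and the ubiquitin-like modifier Isg15 (28.0, 38.3 and 41.4 FPKM against 444, 428 and 473 FPKM) were thus measurable in wild type too, so the list was not off there. The smallest rise of the list was that of Ifit2, at 14.1, 14.5 and 15.7 FPKM against 32.7, 31.6 and 32.7 FPKM (1.08 ± 0.07).

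Among regulators, Irf7, the factor that amplifies interferon production, stood at 2.35, 3.14 and 4.23 FPKM in wild type and 55.4, 52.7 and 57.1 FPKM in CHIP-KO (3.75 ± 0.13, limma adjusted p = 1.0e-09). The nucleic acid sensors Zbp1, Dhx58 and Tlr3 rose by 3.37, 3 and 2.10. The adaptors Tmem173 (STING) and Mavs went the other way, Tmem173 from 26.0, 24.4 and 26.2 FPKM to 19.3, 20.6 and 19 FPKM and Mavs by a difference of -0.36 (limma adjusted p = 0.0012 and 7.2e-04). These sensors and these adaptors, which act below other sensors, differed in direction.

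The GTPases Gbp2, Gbp3, Igtp and Irgm2, which attack the vacuoles of intracellular parasites, rose by 3.30 to 4.07. In antigen presentation the immunoproteasome subunit Psmb8 stood at 0.0696, 0.0747 and 0.120 FPKM in wild type and 4.72, 3.95 and 5.4 FPKM in CHIP-KO (2.38 ± 0.09, limma adjusted p = 2.3e-09). The peptide transporter Tap1 and the class I genes H2-T23 and H2-Q4 rose by 2.25, 2.64 and 2.14, where class I genes are a family of close copies among which reads can be split wrongly. Of 8 complement members 4 were higher and 2 lower, against 25.6% and 26.5% of all genes. C3 led the rises (1.67, 1.06 and 1.32 FPKM against 10.5, 10.7 and 10.5 FPKM).

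Chemokines and cytokines were divided, with 6 of 14 members higher and 6 lower, against 25.6% and 26.5% of all genes. Among the 13 that reached 1 FPKM in both genotypes, 6 were higher and 5 lower. Ccl5, an attractant of T cells, stood at 8.40, 12.9 and 12.3 FPKM in wild type and 75.7, 65.5 and 70.5 FPKM in CHIP-KO, and Cxcl10 rose by 1.27 (limma adjusted p = 6.7e-08 and 1.4e-05). Ccl2, an attractant of monocytes, fell from 101, 95.7 and 104 FPKM to 33.5, 38.9 and 32.1 FPKM (limma adjusted p = 2.1e-06). Of 17 NF-kB subunits and feedback genes 7 were higher and 2 lower, and Bcl3, a nuclear partner of NF-kB, was the 1 member at least 2-fold higher (0.0769, 0.310 and 0.0381 FPKM against 4.20, 3.88 and 5.19 FPKM). Bcl3 reached 1 FPKM in no wild-type library and had to be higher. Of the other 16, 6 were higher and 2 lower (median 0.05).

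**Figure D5:**
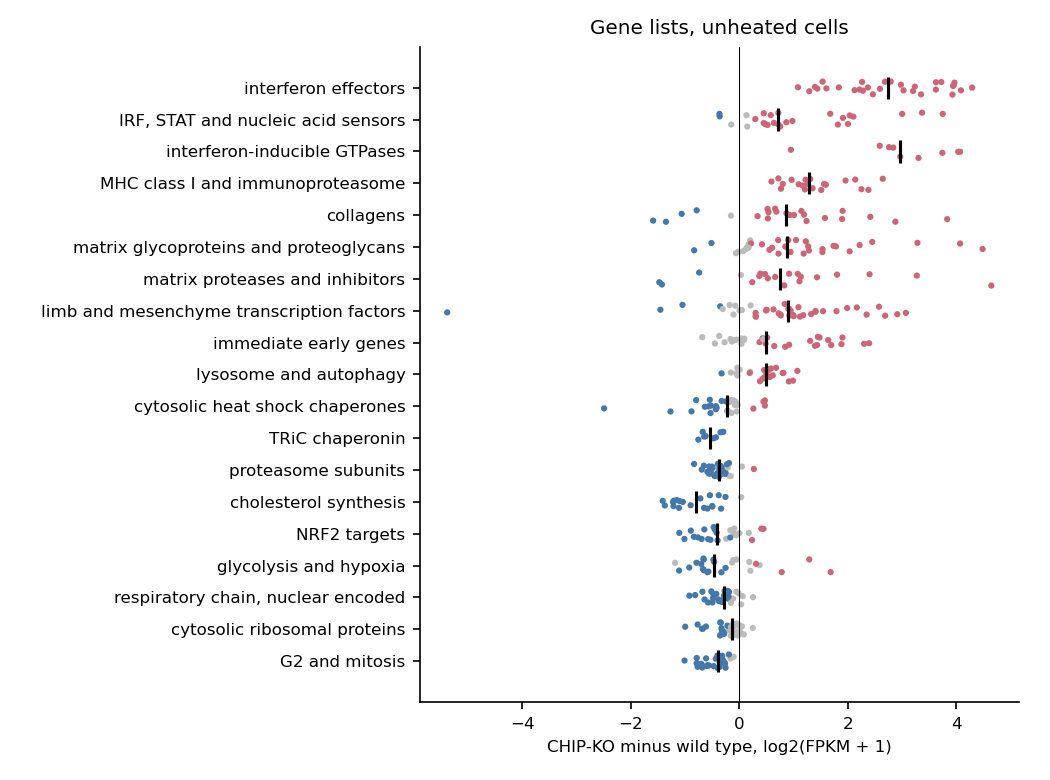
Each point is 1 gene's CHIP-KO minus wild-type difference in log2(FPKM + 1), grouped by list, in red where higher, blue where lower and grey where not called, with a line at the list's median. The interferon effectors lie wholly to the right (median 2.74) and the cholesterol synthesis genes nearly all to the left (median -0.81).

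Matrix genes were mostly higher in CHIP-KO. Of 23 collagen members 18 were higher and 4 lower, of 34 matrix glycoproteins and proteoglycans 24 and 2, and of 20 proteases and inhibitors 16 and 3, with medians of 0.87, 0.88 and 0.75. Over all genes 25.6% were higher and 26.5% lower. Among those that reached 1 FPKM in both genotypes, 13 of 18, 16 of 25 and 14 of 18 were higher. The microfibril collagen Col6a3 stood at 1.38, 1.56 and 1.78 FPKM in wild type and 17.6, 17.2 and 18.9 FPKM in CHIP-KO (2.88 ± 0.08, limma adjusted p = 1.0e-10). Postn, periostin, stood at 0.766, 0.775 and 0.898 FPKM against 16.1, 16.1 and 17.8 FPKM (3.28 ± 0.07, limma adjusted p = 1.9e-11). Serpinf1, the secreted anti-angiogenic factor PEDF, stood at 3.95, 3.86 and 3.89 FPKM against 44.8, 46.4 and 47.8 FPKM (3.27 ± 0.07, limma adjusted p = 3.5e-11). The 3 genes were low but present in wild type.

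The 4 collagens that were lower were Col18a1, Col4a1, Col4a2 and Col4a5, which are of basement membranes, as is Col4a6, which rose by 2.41. Col4a1 fell from 105, 100 and 97.7 FPKM to 38.5, 38.7 and 39.5 FPKM (-1.35 ± 0.06, limma adjusted p = 5.9e-09), and Col18a1, Col4a2 and Col4a5 fell by differences of -1.59, -1.06 and -0.79. Lox, the enzyme that crosslinks collagen and elastin, fell from 176, 168 and 182 FPKM to 74.1, 73.4 and 74.7 FPKM (-1.23 ± 0.05, limma adjusted p = 1.9e-09), while its relative Loxl3 rose by 1.45. The aggrecanase Adamts5 fell from 18.3, 19.1 and 19.5 FPKM to 6.5, 6.45 and 6.32 FPKM. Among adhesion receptors, with 9 of 17 members higher and 6 lower, the laminin receptor subunit Itga3 (80.1, 93.9 and 85.5 FPKM against 34.3, 33.1 and 34.4 FPKM) and P-cadherin, Cdh3 (48.2, 50 and 52.8 FPKM against 22.9, 22.2 and 21.4 FPKM), were the largest changes, both falls. Among the 16 adhesion receptor members that reached 1 FPKM in both genotypes, 8 were higher and 6 lower.

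Growth factor signalling genes changed in both directions. Of 28 receptors and ligands 15 were higher and 9 lower, against 25.6% and 26.5% of all genes. Of these 28, 2 reached 1 FPKM in no wild-type library and 2 in no CHIP-KO library, so the filter fixed their direction. Of the other 24, 13 were higher and 7 lower. Egfr, the EGF receptor, stood at 1.15, 1.60 and 1.82 FPKM in wild type and 5.79, 5.87 and 6.74 FPKM in CHIP-KO (1.51 ± 0.09, limma adjusted p = 1.6e-07), and its relatives' ligand Nrg1 rose by 1.49. Fgf10, a ligand of limb and lung budding, fell from 5.59, 5.56 and 4.88 FPKM to 1.46, 1.21 and 1.46 FPKM (limma adjusted p = 4.0e-08), and Pdgfb fell by a difference of -1.05. All 5 members of the IGF binding list were higher, with Igfbp6 at 4.39, 3.12 and 3.77 FPKM against 23.4, 24.9 and 28.2 FPKM. Of these 5, 1 reached 1 FPKM in no wild-type library and had to be higher. The other 4 were higher too.

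Secreted ligands and antagonists of developmental pathways were among the larger changes. Of 22 Wnt members 14 were higher and 4 lower: the receptor Fzd1 rose from 7.59, 7.54 and 7.27 FPKM to 47.1, 50 and 54.9 FPKM (2.61 ± 0.06, limma adjusted p = 2.8e-11), and the antagonist Sfrp2 fell from 24.7, 20.9 and 23.5 FPKM to 6.07, 7.06 and 7.59 FPKM. Of 25 BMP and TGF-beta members 13 were higher and 4 lower. Both lists stand against 25.6% higher and 26.5% lower over all genes. Of the Wnt members, 4 reached 1 FPKM in no wild-type library and 1 in no CHIP-KO library, so the filter fixed their direction. Of the other 17, 10 were higher and 3 lower (median 0.46). The filter likewise fixed 2 and 1 of the BMP and TGF-beta members. Of the other 22, 11 were higher and 3 lower (median 0.40). The BMP antagonist Grem1 rose from 0.780, 1.10 and 0.999 FPKM to 13.9, 11.1 and 11.1 FPKM (2.73 ± 0.09, limma adjusted p = 7.5e-10), and the ligands Bmp2 and Bmp4 fell by differences of -1.27 and -0.76. The ligand Tgfb3 rose from 10.2, 12.2 and 14.1 FPKM to 84.1, 84.3 and 87.3 FPKM (2.72 ± 0.11, limma adjusted p = 3.6e-09).

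In the Notch list 6 of 11 members were higher and 3 lower, with the ligand Jag1 at 0.849, 0.921 and 0.938 FPKM in wild type and 5.95, 6 and 6.01 FPKM in CHIP-KO (1.88 ± 0.15, limma adjusted p = 1.4e-06) and Jag2 lower by a difference of -0.52. Jag1 reached 1 FPKM in no wild-type library and had to be higher. Of the other 10, 5 were higher and 3 lower. Of 7 Hedgehog members 5 were higher and 1 lower (5 and 2 without the wild-type libraries numbered 1): the co-receptor Boc rose by 1.96 and Ptch1, a receptor that is also a target of the pathway, fell by a difference of -0.50. Of 20 YAP targets 12 were not called. Over all genes 52.1% were called, 25.6% higher and 26.5% lower. Of 16 SRF and contractile genes 10 were higher and 2 lower, led by the light chain Myl9 (3.71, 3.69 and 3.89 FPKM against 17.3, 19.5 and 21.7 FPKM).

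Immediate early genes, which growth factors and stress switch on within minutes, were higher in 18 of 31 members and lower in none, with a median of 0.48 and 11 at least 2-fold higher. Over all genes 25.6% were higher and 5.09% at least 2-fold higher. Of the 31, 3 reached 1 FPKM in no wild-type library and had to be higher. Of the other 28, 15 were higher and none lower (median 0.43). Egr1 stood at 10.7, 12.5 and 11.8 FPKM in wild type and 58.8, 66.6 and 71.3 FPKM in CHIP-KO (2.39 ± 0.12, limma adjusted p = 1.7e-08). Fos stood at 2.16, 1.69 and 1.60 FPKM against 7.92, 9.69 and 11.1 FPKM (1.90 ± 0.17, limma adjusted p = 2.9e-06). Dusp6, a feedback phosphatase of ERK, rose from 0.648, 0.963 and 1.04 FPKM to 3.59, 4.41 and 3.83 FPKM. Atf3, Fosl1 and Fosl2, relatives in the ATF and Fos families, were not called, with differences of 0.04 ± 0.36, -0.16 ± 0.30 and -0.06 ± 0.20, so that a change of the size seen in Egr1 is outside 2 SE for each.

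Of the chaperones with which CHIP works, more were lower than higher. Of 29 cytosolic heat shock members 15 were lower and 4 higher (median -0.22), against 26.5% and 25.6% of all genes. Hsp90aa1, the inducible HSP90, stood at 436, 345 and 326 FPKM in wild type and 202, 195 and 198 FPKM in CHIP-KO (-0.88 ± 0.18, limma adjusted p = 0.0018). Hsph1, a nucleotide exchange factor of HSP70, stood at 64.8, 55.1 and 53.1 FPKM against 23.3, 23.2 and 23.4 FPKM (-1.27 ± 0.33, limma adjusted p = 0.0075). Both had their highest value in wild-type replicate 1, and neither group overlapped the other.

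The inducible HSP70 gene Hspa1a was slightly higher in CHIP-KO, at 1.78, 2.53 and 2.44 FPKM in wild type and 3.54, 3.46 and 3.44 FPKM in CHIP-KO (0.47 ± 0.14, limma adjusted p = 0.016). Without wild-type replicate 1 its difference was 0.36 and the call was lost (limma adjusted p = 0.064). The neighbouring gene Hspa1b, almost the same in sequence, was not called (-0.13 ± 0.11), and reads may be divided wrongly between the copies. Of 29 members among CHIP's partners and related ligases 12 were lower and 3 higher, none by 2-fold: Hspbp1, which inhibits CHIP, fell from 26.7, 23.4 and 23.5 FPKM to 16.6, 17.0 and 17.0 FPKM, and the ligase Ube4b and the segregase Vcp by differences of -0.43 and -0.49. Atxn3, a deubiquitinase that works with CHIP, rose by 0.33.

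Protein folding and degradation machines were lower in most members, by less than 2-fold in all of the proteasome and TRiC. Of 31 proteasome subunits 26 were lower and 1 higher (median -0.38), with the base subunit Psmd2 at 196, 175 and 173 FPKM in wild type and 101, 101 and 102 FPKM in CHIP-KO (-0.83 ± 0.08, limma adjusted p = 3.4e-06). All 8 TRiC chaperonin subunits were lower (median -0.55). Of 20 ER chaperones 11 were lower and 3 higher. Sdf2l1, a partner of BiP, fell from 38.5, 39.3 and 36.5 FPKM to 17.3, 12.5 and 17.8 FPKM (-1.23 ± 0.11, limma adjusted p = 3.3e-06), while Herpud1, of ER-associated degradation, rose by 0.30.

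The lysosome went the other way. Of 25 lysosome and autophagy members 18 were higher and 1 lower, with a median of 0.50, and 19 and 2 without the wild-type libraries numbered 1. Grn, the lysosomal protein progranulin, rose from 95.1, 85.1 and 90.0 FPKM to 187, 183 and 201 FPKM (1.07 ± 0.07, limma adjusted p = 1.2e-07). The hexosaminidase gene Hexa and the cholesterol carrier Npc2 rose by 0.81 and 0.91, and the autophagy gene Atg5 fell by a difference of -0.33. Subunits of the proteasome and enzymes of the lysosome thus differed in opposite directions in the same libraries.

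Cholesterol synthesis had the most uniform falls among metabolic lists, with 19 of 20 members lower and none higher (median -0.81, 9 of them at least 2-fold). Hmgcs1, the HMG-CoA synthase that starts the pathway, stood at 68.8, 60.6 and 58.2 FPKM in wild type and 28.5, 28.1 and 29.0 FPKM in CHIP-KO (-1.10 ± 0.06, limma adjusted p = 5.4e-08). SREBP factors are known to drive the pathway from sterol regulatory elements, and the form TCACNCCAC was searched on both strands of the same promoter table. Among the 15 genes of this list with an entry only Hmgcs1 held it, and 1.36% of all members with an entry and 1.44% of all genes in the table did. The stretch is chr13:119690169-119690267, plus strand, and is shown since it holds the only match in the list, in capitals.
Hmgcs1: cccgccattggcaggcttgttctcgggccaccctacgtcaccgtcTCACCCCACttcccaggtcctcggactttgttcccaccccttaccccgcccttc
The absence of these letters from the other windows says nothing of the factor.

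Around the pathway, the sterol sensor Insig1 was lower by a difference of -0.55. Abca1, which exports cholesterol, stood at 0.325, 0.247 and 0.345 FPKM in wild type and 6.58, 6.90 and 7.73 FPKM in CHIP-KO (2.63 ± 0.09, limma adjusted p = 8.3e-10). Srebf1 rose by 0.47. Synthesis genes were thus lower where the export gene was higher.

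Of 25 glycolysis and hypoxia members 14 were lower and 4 higher. Among the 24 that reached 1 FPKM in both genotypes, 14 were lower and 3 higher. The isozymes of enolase crossed: Eno1 fell from 302, 288 and 265 FPKM to 132, 130 and 132 FPKM (-1.11 ± 0.07, limma adjusted p = 1.1e-07), and Eno2, the neuronal form, rose from 3.25, 4.32 and 4.18 FPKM to 11.4, 11 and 10.6 FPKM. Of 24 NRF2 targets 14 were lower and 3 higher, with the glutathione synthesis subunits Gclc and Gclm lower by differences of -1.01 and -0.84 and the NRF2 gene itself, Nfe2l2, higher by 0.41. In the ATF4 amino acid program 11 of 21 were lower and 3 higher (10 and 5 without the wild-type libraries numbered 1), with the serine synthesis enzyme Psat1 at 116, 110 and 100 FPKM against 53.7, 52.4 and 53.1 FPKM. Among the 19 members of this program that reached 1 FPKM in both genotypes, 10 were lower and 2 higher. Of 32 nuclear-encoded respiratory chain members 25 were lower and none higher (median -0.28). Cyc1 of complex III fell from 109, 110 and 111 FPKM to 56.7, 57.5 and 58.7 FPKM (limma adjusted p = 2.3e-07).

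Genes of cell division were mostly lower in CHIP-KO. Of 28 G2 and mitosis members 26 were lower and none higher (median -0.40): Cdc20, an activator of the anaphase-promoting complex, fell from 144, 128 and 120 FPKM to 65.1, 63.9 and 63.6 FPKM (-1.01 ± 0.11, limma adjusted p = 1.1e-05), and Ccnb1, cyclin B1, by a difference of -0.79. Of 28 G1/S and replication members 10 were lower and 4 higher, and 12 and 8 without the wild-type libraries numbered 1; the ribonucleotide reductase subunit Rrm2 fell from 74.6, 68.6 and 65.6 FPKM to 33.1, 32.8 and 31.2 FPKM, while the helicase subunit Mcm2 rose by 0.31. In bulk RNA, fewer dividing cells and less RNA per dividing cell cannot be told apart.

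Cyclin D1, Ccnd1, which drives entry into the cycle, fell from 18.7, 16.3 and 15.2 FPKM to 3.87, 3.43 and 3.31 FPKM (-1.97 ± 0.09, limma adjusted p = 1.1e-08). Its relatives Ccnd2 and Ccnd3 were not called, at differences of -0.01 ± 0.10 and -0.26 ± 0.14. The inhibitors Cdkn1a, Cdkn1b, Cdkn2a, Cdkn2b and Cdkn2c were higher by 0.34, 0.44, 0.64, 0.49 and 0.40, of which Cdkn2a was the most abundant, at 476, 398 and 374 FPKM in wild type and 636, 617 and 682 FPKM in CHIP-KO. Of 25 p53 targets 11 were lower and 3 higher, and Pmaip1 (Noxa) rose from 1.39, 0.830 and 0.623 FPKM to 5.82, 6.47 and 6.35 FPKM. Of 39 ribosomal protein members 14 were lower and none higher, and 24 and 1 without the wild-type libraries numbered 1. Over all genes 26.5% were lower and 25.6% higher.

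The very largest rise of any member, singled out after the values were seen, was a processed pseudogene. Atp6v0c-ps2 (chr6:37806086-37806550, plus strand), a copy of a proton pump gene, stood at 2.73, 1.43 and 2.53 FPKM in wild type and 293, 298 and 310 FPKM in CHIP-KO (6.57 ± 0.23, limma adjusted p = 1.1e-09). Its parent Atp6v0c, on chromosome 17, stood at 24.0, 29.3 and 29.3 FPKM against 11.1, 8.92 and 9.36 FPKM (-1.40 ± 0.14, limma adjusted p = 8.5e-06). The parent and the copy moved in opposite directions, and reads from near-identical copies can be assigned to either, so both values are uncertain.

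A similar pair was Rps2-ps6, at 2.67, 0.717 and 0.441 FPKM in wild type and 21.7, 52.7 and 56.9 FPKM in CHIP-KO, and its parent Rps2, a ribosomal protein gene, at 1339.8, 1238 and 1156 FPKM against 617, 607 and 642 FPKM. The processed pseudogene Gm9825 rose by 5.86. Of 682 pseudogene members 70 were higher and 162 lower, 24 and 31 of them at least 2-fold. These shares, 10.3% and 23.8%, were below the 25.6% and 26.5% of all genes, and those at least 2-fold were 3.52% and 4.55%, against 5.09% and 1.66% of all genes. Non-coding RNAs with predicted names were skipped. Of those named, Hoxb5os and Dnm3os rose by 1.39 and 1.27, and Crnde fell by a difference of -0.64. Neat1, the RNA of nuclear paraspeckles, stood at 9.48, 12.9 and 15.5 FPKM against 27.2, 30.8 and 22.3 FPKM. Zfp335os fell by a difference of -0.71, and the calls of Bvht (0.78) and Med9os (-0.72) were lost when wild-type replicate 1 or other single libraries were left out. The reads' strand is not stated, so antisense RNAs cannot be told from their partner genes.

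Of the 10 most abundant genes, Col1a1 was higher (1087, 820 and 803 FPKM against 1747, 1771 and 1886 FPKM, 1.01 ± 0.12, limma adjusted p = 3.2e-05) and Rpl41 and Rplp1 were lower by differences of -0.85 and -0.24, though the call of Rplp1 was lost without wild-type replicate 3 (-0.22), CHIP-KO replicate 1 (-0.23) or CHIP-KO replicate 3 (-0.23). The other 7, Gm23935, Eef1a1, mt-Co1, mt-Nd1, Rplp0, Lgals1 and mt-Cytb, were not called. Without wild-type replicate 1, Lgals1 (galectin-1) and mt-Nd1 were called lower (-0.54 and -0.61), and without wild-type replicate 3, mt-Co1 and mt-Cytb were called higher (0.62 and 0.86). The mitochondrial ones among them were lowest in wild-type replicate 1, with mt-Co1 at 1278 FPKM there against 2424 and 2710.2 FPKM in the other wild-type libraries.

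The markers of fibroblasts differed between the genotypes. Of 18 listed, 13 were members, 9 higher and 3 lower, and their summed level was 1505 to 1912 FPKM in wild type and 2995 to 3162 FPKM in CHIP-KO. Of the 13, 3 reached 1 FPKM in no wild-type library and had to be higher. Of the other 10, 6 were higher and 3 lower. Vim, vimentin, was abundant in all 6 libraries (668, 590 and 541 FPKM against 497, 486 and 494 FPKM). The surface antigen Thy1 stood at 0, 0 and 0.0157 FPKM in wild type and 9.15, 7.61 and 8.09 FPKM in CHIP-KO (3.20 ± 0.08, limma adjusted p = 4.7e-11), and Pdgfra was at 1.10, 1.10 and 0.808 FPKM in wild type against 19.6, 18.1 and 19.5 FPKM. The wild-type libraries thus had collagen and vimentin RNA with little or no Thy1 and Pdgfra RNA.

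Markers of other cell types ranged from absent to well expressed. None of 16 epithelial markers was a member (summed level 1.28 to 1.70 FPKM in wild type and 1.54 to 1.59 FPKM in CHIP-KO, with Krt6a at 0 in all), and Ptprc of leukocytes, Cdh5 of endothelium and Adipoq of adipocytes were at 0 or under 0.02 FPKM in all 6 libraries. The mesothelial marker Msln was present in both genotypes (29.7, 30.4 and 30.1 FPKM against 31.9, 30.9 and 27.6 FPKM, limma adjusted p = 0.995), with Wt1 and Upk1b at 0 in all. The leukocyte list summed to 11.9 to 13.7 FPKM in wild type and 12.2 to 12.5 FPKM in CHIP-KO, and the endothelial list to 6.87 to 8.13 and 7.56 to 8.67 FPKM. The mesothelial list summed to 42.5 to 46.9 and 37.3 to 42.0 FPKM and the skeletal muscle list to 2.72 to 2.99 and 1.56 to 1.86 FPKM, with Myod1 and Pax7 at 0 in all.

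Cartilage and bone markers were higher in 5 of 6 members and lower in 1 (summed level 44.5 to 46.8 FPKM in wild type and 170 to 178 FPKM in CHIP-KO). Of the 6, 2 reached 1 FPKM in no wild-type library and 1 in no CHIP-KO library, so the filter fixed their direction. The other 3 were higher, where 25.6% of all genes were. Spp1, osteopontin, stood at 35.7, 32.4 and 31.2 FPKM against 152, 145 and 153 FPKM, and the cartilage factor Sox9 at 3.18, 3.49 and 3.68 FPKM against 12.1, 12.7 and 13.1 FPKM (limma adjusted p = 5.4e-10 and 4.9e-06). Ibsp of bone was at 0 in all 6 libraries. Neural and glial markers summed to 30.2 to 35.8 and 46.3 to 50.3 FPKM, with Snap25 and Rbfox3 at 0 in all. Of their 4 members, Sox2, Tubb3 and Map2 were higher (1.92, 1.10 and 0.91). Nes was lower (-0.24), a call lost without the wild-type libraries numbered 1. Of these 4, 1 reached 1 FPKM in no wild-type library and had to be higher. Smooth muscle and pericyte markers summed to 60.6 to 68.2 and 102 to 104 FPKM, with Abcc9 at 0 in all, and adipocyte markers to 3.28 to 3.48 and 5.33 to 5.86 FPKM. Of the 4 smooth muscle and pericyte members, Cspg4 and Acta2 were higher (1.23 and 1.07), Mcam was lower (-0.66) and 1 was not called. What part these markers have in the matrix and transcription factor differences was not tested.

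The same genes were then read in the heated libraries. All 12 largest rises and all 12 largest falls were called in the same direction there, where 25.2% of all genes were higher in CHIP-KO and 18.9% lower. Of the 3069 genes higher without heat 1479 were also higher with heat, which is 48.2% of those without and 49.0% of the 3017 with heat, and of the 3177 lower genes 1031 were also lower, 32.5% of those without and 45.4% of the 2273 with heat. Dlk1, Efemp1 and Pitx1 had differences of 4.41, 4.68 and -5.61 after heat, close to those without. The genotype difference itself was larger or smaller with heat for 14 of the 24 genes, where 37.4% of all genes passed that test (limma's interaction term, adjusted p under 0.05). The rises Usp18, Gbp3, Oasl2 and Ifi27l2a, all induced by interferon, were smaller after heat, at 1.96, 1.94, 1.92 and 0.89.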

How the data were processed

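The authors deposited 1 table of FPKM values for 12 libraries (poly(A) RNA, per the labels' protocols). The submitters' processing notes name HISAT2 as a tool, and the aligner's version, the counter and the annotation were not given in the sources used here. Positions in the file are identical to GENCODE M21 (GRCm38) for 53585 of 54532 identifiers. Values times gene length gave whole fragments (tolerance 0.01) in every library, from which depth was read. Groups came from the titles' and characteristics' labels. Log2(FPKM + 1) was fitted with limma 3.58.1 (R 4.3.3), with a mean for each of 4 groups, all 12 libraries and a variance trend, two-sided, Benjamini-Hochberg adjusted over 11995 genes.

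The members and the 55 gene lists were chosen with earlier results of these data known, and lists have no test of their own. Named genes are the 12 largest rises and falls among protein-coding, called, non-overlapping genes of at least 2 FPKM in the higher group, 8 transcription factors and 4 non-coding genes per direction, genes near 0 in 1 genotype, the 10 most abundant, and up to 4 members and 2 exceptions per list; predicted names were skipped. Others were named after their values were seen, to complete a list or a family. A fold against a group at 0 uses a floor of 3 fragments per library, which covers counting error only.

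On data simulated for this comparison (11930 genes) the steps found 60.9% of genes changed 1.5-fold, 96.9% of those changed 2-fold and 98.4% at 4-fold, and 3.51% of calls were false. The simulation changed 64, 65 and 64 genes at these folds and gave every gene and library the same spread beyond counting. It held no heat effect and no library that stood apart. These shares need not hold for the real libraries, where 52.1% of genes were called and wild-type replicate 1 stood apart. Alternatives covered the pseudocount, filter, scaling, library weights, replicate block, a minimum change, voom on recovered fragments and each library left out; leaving out both wild-type libraries numbered 1 and thinning to equal depth were chosen after seeing the data. Figures used matplotlib 3.10.9 and pandas 2.3.3 in Python 3.11.15. Some genes of the lists are not reported here.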

Additional observations from a re-analysis of the deposited data

Results flagged for a closer look

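For 14 of the 24 largest rises and falls, the CHIP-KO minus wild-type difference was not the same with and without heat by limma's interaction term (adjusted p under 0.05), where 37.4% of all genes passed that test. Values are the difference with heat minus that without, on the log2(FPKM + 1) scale. The interferon-induced genes Usp18, Ifit3, Gbp2, Gbp3, Oasl2 and Ifi27l2a had -2.33, -1.96, -1.35, -2.09, -2.04 and -3.07, so their rise was smaller with heat. The matrix and secreted factor genes Enpp2, Mmp2, Angptl4 and Ltbp2 had -1.53, -0.93, -0.94 and -0.98, also smaller rises. Of the falls, Lmcd1, Csf2ra and Gas6 had -0.70, -0.97 and -1.95, so that their fall was larger with heat, and Stat6 had 0.68, a smaller fall. All 24 genes kept their direction in the heated libraries. The 24 were picked for a large difference without heat.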

How the results depend on the processing

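The number of genes called (6246) lay between 4415 (mean FPKM of at least 5) and 7951 (library weights) over 21 of 22 alternatives. With a mean FPKM of at least 5, where fewer genes are tested (7876), 1984 were higher. Asking for more than a 1.5-fold change left 911 genes, 696 higher and 215 lower, since that test adds a minimum size. Leaving out each library in turn gave 5348 to 5898 called genes, 2677 to 2984 higher and 2642 to 3033 lower, and leaving out both wild-type libraries numbered 1 gave 6685. Quantile normalization moved the median of all genes from -0.01 to -0.05 and gave 2826 higher and 3586 lower. The replicate numbers do not pair the libraries (correlations of same-numbered deviations 0.012, -0.021 and -0.057), and with the replicate block 6252 genes were called, 3088 higher and 3164 lower. Of 271 named genes, 102 lost their call under at least 1 alternative. These alternatives include the test for more than a 1.5-fold change, which removes small differences by design. Counted over named genes and alternatives, calls were unchanged 5695 times, gained 14 times and lost 162 times. Rplp0 and Gm23935, neither of them called, changed sign: Rplp0 had 0.082 under quantile normalization and -0.154 to 0.018 with 1 library left out, and Gm23935 -0.14 to 0.20 with 1 library left out. The cause was not tested. The list median of integrins and cadherins went from 0.22 to -0.22 with a mean FPKM of at least 5, and the endothelial markers' median, near 0, changed sign under 4 alternatives. Depth limits genes under about 1 FPKM.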
